A study of Mus musculus with 112 samples.

Results

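The regions described here were autosomal bins of 100 bp in which sperm libraries ranged from nearly unmethylated to nearly fully methylated. A bin was scored where 3 or more CpG positions had a value in at least 4 libraries of each of the 7 F0 sperm groups, and each library was given the mean of its valued positions. A scored bin was kept where at least 4 of the 67 F0 sperm libraries lay at 20% methylation or less and at least 4 lay at 80% or more. Of 103564 scored bins, 132 were kept (0.127%), and they lay at 132 separate loci with no pair within 1000 bp of each other. These variable bins were chosen by their F0 sperm values, so their F0 levels and spread are given as description. The rule took no account of the group that an extreme library came from. Differences between groups were tested over all scored bins, and for F0 sperm such calls at variable bins are not independent of the rule.

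The study applied reduced representation bisulfite sequencing (RRBS) to 112 mouse libraries. F0 sperm came from C57BL/6J males that were unexposed (control WT, n = 10) or exposed to cigarette smoke for 60 days from 6 to 7 weeks of age and collected within 3 days (smoked WT, n = 9). Exposed males also recovered for 28 to 171 days in 3 successive groups (recovery 1, n = 9, recovery 2, n = 10, and recovery 3, n = 10), and males with a constitutive loss of Nrf2 on the same background were unexposed or exposed (control Nrf2-/-, n = 10, and smoked Nrf2-/-, n = 9). The study collected the control WT males with the smoked WT males, so the recovery males were older at collection than the controls. Sons of CAST/EiJ mothers gave F1 sperm (6 from control WT and 7 from smoked WT sires) and prefrontal cortex, called F1 brain (8 for each kind of sire, WT or Nrf2-/-, control or smoked). Sons of Nrf2-/- sires carried 1 targeted allele, and all sons carried CAST/EiJ sequence on 1 allele, so that an F1 level can mix sequence and methylation. The sample titles number the libraries of a group as replicates, which are taken here as separate animals. They name no sire or litter, so whether sons shared a sire is unknown here, and the tests count each son separately.

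Sperm DNA is methylated over most of the genome, with CpG islands and the maternally methylated imprinted regions as the best known exceptions. Within 1 sperm a CpG on a given strand is either methylated or not, so an intermediate level in a library means a mixture of molecules. In RRBS, genomic DNA is cut at short restriction sites, and a read starts at a cut end and covers only the first bases of the fragment. The study cut separate aliquots with MspI, which recognises CCGG, and TaqαI, which recognises TCGA, and pooled the products. Both sites read the same on either strand, and the CpG within the site is itself measured on both strands, from the fragments on either side of it.

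To show what was read, sequences of 8 variable bins are printed on the forward strand of GRCm38, the mm10 build, with every TCGA and CCGG site in capitals. The bin near Cbln4 was among those with most libraries at the rarer extreme, and the bin near Tecrl had exactly 4 libraries at 80% or more. The Ephb1 and Rabgap1l bins carried positions on both strands of a TCGA site. The Nog, Osbpl3 and Efcab3 bins were called between genotypes, but they met the low limit of the rule mostly through Nrf2-/- libraries. The Glis3 bin is an example with CCGG sites and positions on a single strand. Bins are named by the nearest coding gene start, which does not mean that the bin belongs to that gene.
Cbln4 bin, chr2:171910001-171910100: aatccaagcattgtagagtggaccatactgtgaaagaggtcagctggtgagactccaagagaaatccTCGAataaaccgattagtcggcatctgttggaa
Tecrl bin, chr5:82706001-82706100: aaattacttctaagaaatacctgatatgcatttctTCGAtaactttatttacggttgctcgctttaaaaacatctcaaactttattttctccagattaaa
Ephb1 bin, chr9:102001801-102001900: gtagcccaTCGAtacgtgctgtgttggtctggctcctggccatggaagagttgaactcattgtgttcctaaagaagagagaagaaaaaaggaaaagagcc
Rabgap1l bin, chr1:160655001-160655100: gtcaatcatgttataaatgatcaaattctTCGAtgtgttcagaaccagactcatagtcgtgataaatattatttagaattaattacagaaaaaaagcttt
Nog bin, chr11:89269201-89269300: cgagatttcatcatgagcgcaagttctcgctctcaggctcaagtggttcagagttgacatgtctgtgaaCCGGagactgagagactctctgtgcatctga
Osbpl3 bin, chr6:50323101-50323200: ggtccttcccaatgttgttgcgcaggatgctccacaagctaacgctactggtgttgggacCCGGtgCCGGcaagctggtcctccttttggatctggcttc
Efcab3 bin, chr11:105117201-105117300: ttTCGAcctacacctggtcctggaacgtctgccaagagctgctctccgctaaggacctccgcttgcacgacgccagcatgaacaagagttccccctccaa
Glis3 bin, chr19:28156701-28156800: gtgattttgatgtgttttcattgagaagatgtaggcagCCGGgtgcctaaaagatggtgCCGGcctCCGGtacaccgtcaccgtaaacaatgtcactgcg

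Although every bin had libraries at both extremes, most values were intermediate. Of 7604 library values in the 132 bins, 912 were at 20% or less, 1247 were at 80% or more and 71.6% lay between. In 124 of the 132 bins more libraries lay between the limits than at both extremes together, so the bins were not all-or-none in most libraries. The median share of valued libraries at an extreme was 26.8% (range 12.1 to 96.6%). Only 8 bins had at least 50% of their libraries at an extreme, 2 had at least 75% and 1, the Nog bin, had at least 90%. Both extremes occurred within the WT libraries alone in 128 bins, within the Nrf2-/- libraries alone in 102 and within the 10 control WT libraries in 66.

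The limit of 4 libraries decided much of the set. Exactly 4 libraries stood at the rarer extreme in 73 of 132 bins (55.3%), 5 in 27 bins, 6 in 14, 7 in 7, 8 in 8, and the highest number was 10. A further 109 scored bins had 3 libraries at the rarer extreme and were left out. Examples just outside were a bin in a coding exon of Nfkbid, an atypical IκB protein (3 libraries low, 10 between and 43 high), and just inside were the Tecrl bin (39 low, 12 between and 4 high) and a bin in an intron of Arfgef1 (4 low, 24 between and 32 high). The low extreme was the rarer in 68 bins, the high extreme in 55, and both were equal in 9. Of the 67 libraries, 37 to 67 had a value in a given variable bin (median 60), against a median of 67 over all scored bins.

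**Figure D1:**
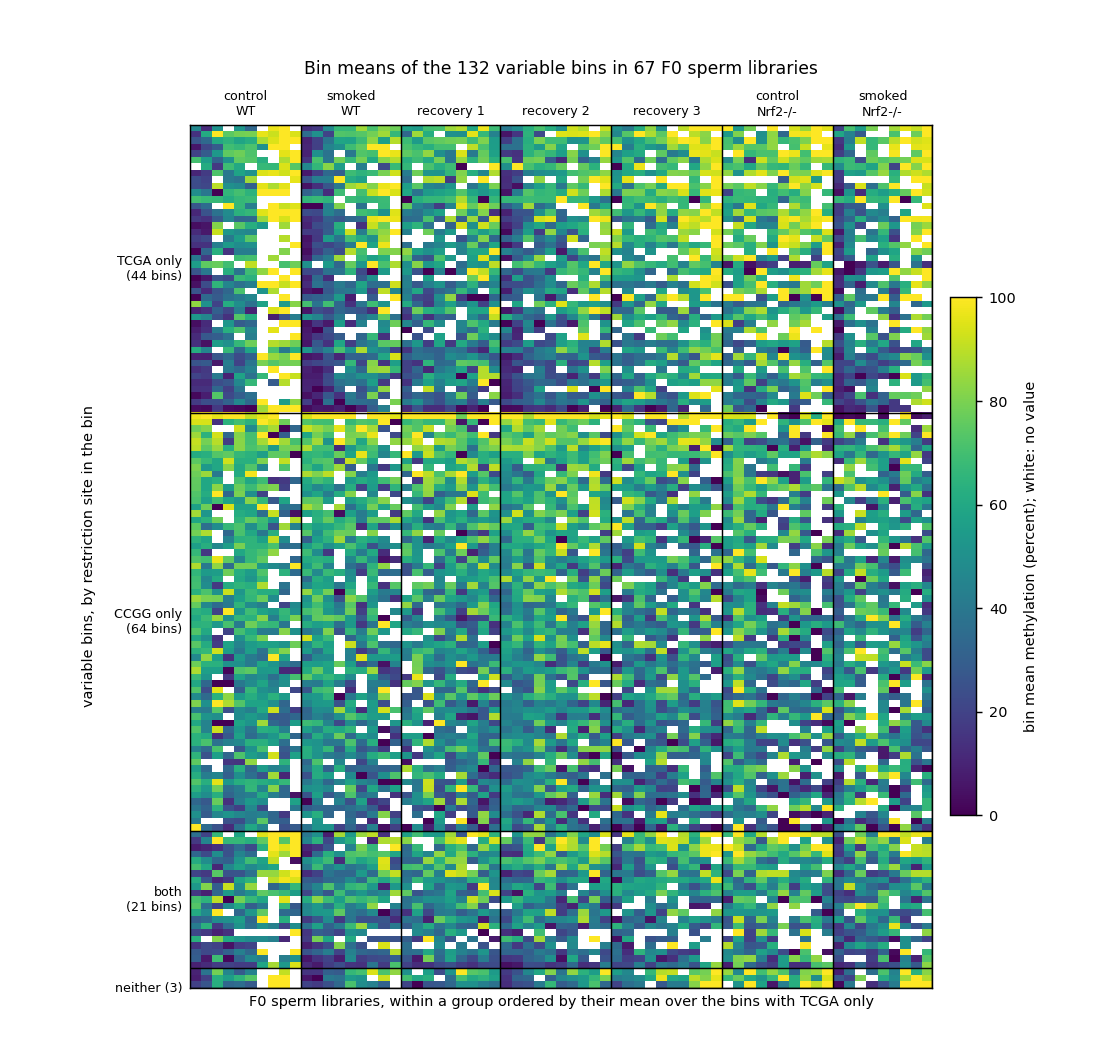
Methylation (percent, colour) of the 132 variable bins (rows, by restriction site in the bin) in the 67 F0 sperm libraries (columns, by group and within a group by their mean over the bins with TCGA only). White cells had no value, and 71.6% of the valued cells lay between 20% and 80%. Dark and bright columns run down the TCGA block, and are less visible in the CCGG block.

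The Nog bin was the nearest to a switch. It lay in intergenic sequence 33032 bp from the start of Nog, which encodes noggin, a secreted antagonist of BMP signalling, and 8 libraries were low, 2 between and 49 high. The Pmp22 bin, named for a gene of peripheral myelin 268033 bp away, had 10 low, 29 between and 16 high libraries, but 8 of the low values rested on the lower strand alone and 15 of the high values on the higher strand alone. The Cbln4 bin, 133366 bp from the gene of a secreted synaptic protein, had 9 low, 35 between and 10 high. Except for the Nog bin, these bins held more intermediate libraries than libraries at either extreme.

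Values within a group ran across the whole range in several bins. In the Cbln4 bin the 8 valued control WT libraries stood at 10, 10, 14.1, 21.4, 30.8, 42.9, 94.4 and 100%, so both extremes occurred among unexposed males of the same strain. In the Tecrl bin all 4 high libraries were control WT (85.7, 100, 100 and 100%), and the other 6 control WT libraries lay between 0 and 16.7%. The highest of the other groups in the Tecrl bin was a control Nrf2-/- library at 76.7%.

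Variable bins lay farther from gene starts than the scored bins as a whole. Of the 132, 60 were intergenic (45.5%, against 25.5% of all scored bins), 49 lay in introns (37.1% against 28.7%), 19 in coding exons (14.4% against 22.3%) and 4 in other exonic sequence (3.03% against 23.6%). Only 12 lay within 1000 bp of an annotated transcript start (9.09%, against 57.4%). The median distance to the nearest coding gene start was 43581 bp, against 726 bp over all scored bins. The median number of CpGs in the reference sequence was 4 against 6, and 28 bins were more than 50% repeat-masked sequence (21.2% against 6.46%). The median level was 51.3% in the variable bins and 1.10% over all scored bins. These contrasts may therefore depend on level, and bins matched in level are not compared here.

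The 19 bins in coding exons included genes of varied roles. Hltf, a helicase-like factor of replication repair, had 6 low, 33 between and 15 high libraries, and Rbm39, a splicing factor, had 4, 34 and 11. Scn8a, a voltage-gated sodium channel, had 12, 37 and 4, and its bin lay 79 bp from a transcript start. Flrt2, an adhesion molecule, had 19, 37 and 4, and Nlrp3, the inflammasome sensor, had 7, 42 and 4. The higher strand alone gave 8 of the 15 high values at Hltf and 3 of the 4 at Flrt2. Counting only libraries with every position valued, Rbm39 and Nlrp3 kept 4 libraries at each extreme, while Hltf, Scn8a and Flrt2 did not. The others included bins in Etv3, Tinagl1, Osbpl3, Tarsl2, Olfr650-ps1, Ephb1, Bcr, Efcab3 with the overlapping Gm11639, Adarb2, Meltf, Mro, Nfatc1 and Nudt22. No test of gene sets was made.

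The restriction site in the bin divided the set into kinds that behaved differently. TCGA without CCGG was in 44 variable bins (33.3%, against 24.7% of all scored bins), CCGG without TCGA in 64 (48.5% against 57.6%), both in 21 (15.9% against 13.7%) and neither in 3 (2.27% against 3.98%). With overlaps counted, TCGA was in 49.2% of the variable and 38.5% of all bins, and CCGG in 64.4% and 71.3%. These shares depend on the level of the bins compared, since the median level over all CCGG-only bins was 0.763% and over all TCGA-only bins 91.9%. Among bins with a mean of 40 to 70% the order was the opposite, with 42 of 1400 TCGA-only bins variable (3.0%) and 59 of 868 CCGG-only bins (6.80%). These classes, the fragment lengths and the strand comparison that follow were chosen after the values had been seen and are descriptions. For each position the length of the fragment that its read came from was predicted as the distance, along the read, to the next site of the same enzyme on the reference, and a bin was given the median over its positions. These lengths assume a cut at every site and no other break, and the length of the molecules that were sequenced is not known here.

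In the TCGA-only variable bins the predicted TaqαI fragment was long. Its median was 391 bp (46 to 9034 bp), against 128 bp over all 25627 TCGA-only bins, and it exceeded 300 bp in 34 of the 44 (77.3%, against 5.83%). The predicted Cbln4 fragment was 390 bp and the predicted Tecrl fragment 4694 bp. In the 64 CCGG-only bins the MspI fragment was of usual length, with a median of 88 bp against 80 bp over all 59605 such bins, and 1 exceeded 300 bp. Of TCGA-only bins, 2 of 14938 on fragments up to 150 bp were variable (0.0134%), 8 of 9196 between 150 and 300 bp (0.0870%), 24 of 1123 between 300 and 500 bp (2.14%) and 10 of 370 on longer ones (2.70%).

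The level of TCGA-only bins as a whole also fell with fragment length, and at a length that differed between tissues. In F0 sperm the median bin level was 94.1% on fragments up to 150 bp, 89.8% between 150 and 300 bp, 57.5% between 300 and 500 bp and 2.36% above 500 bp. The F1 sperm medians in the same classes were 81.0, 52.5, 5.70 and 1.98%, lower than F0 sperm in every class. In F1 brain they were 82.9, 79.4, 73.3 and 5.04%, and brain stood above F0 sperm between 300 and 500 bp and also above 500 bp. Each F1 median covers only the bins scored in that tissue, which between 300 and 500 bp were 257 of 1123 in F1 sperm and 638 in F1 brain. The bins in these classes are different bins, which may differ in true level, so these medians alone do not separate fragment length from sequence. Variable bins were most frequent in the classes where the F0 sperm level dropped.

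**Figure D2:**
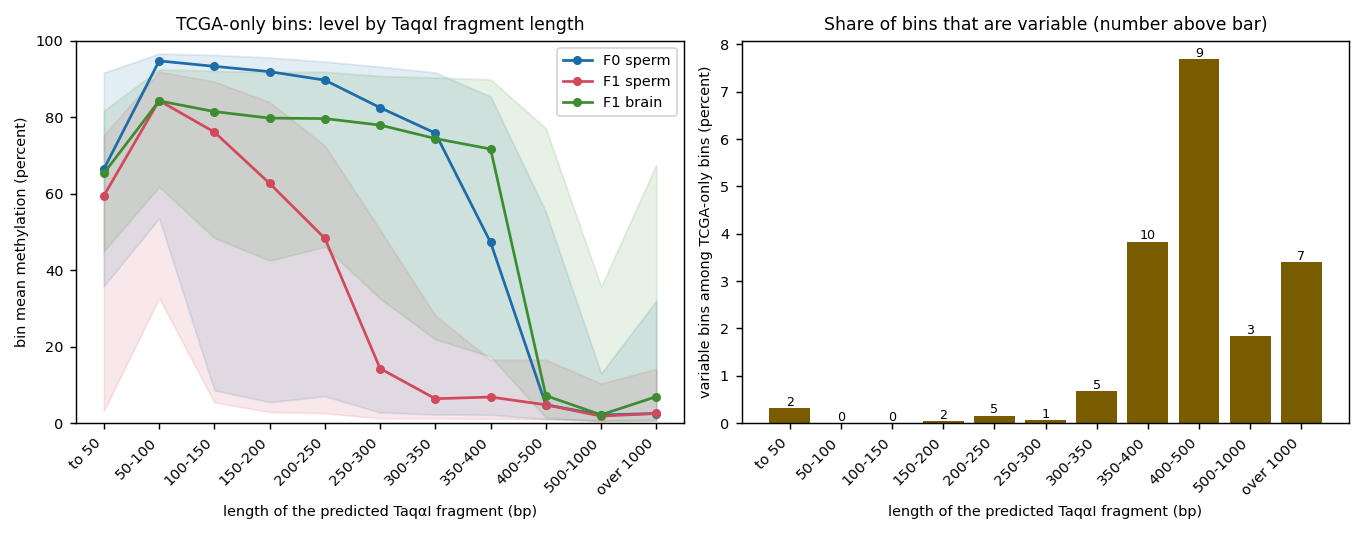
Left, median level (percent, points) and interquartile range (shading) of TCGA-only bins by predicted TaqαI fragment length (bp) in F0 sperm, F1 sperm and F1 brain, with each bin averaged over its libraries. Right, variable bins as a percent of TCGA-only bins in the same length classes, with their number above each bar. The level drops at shorter lengths in F1 sperm than in F0 sperm, and 34 of the 44 variable bins lie above 300 bp.

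The strands of a TCGA site allowed the same CpG to be compared on fragments of unequal predicted length. In 22 variable bins both strands of a TCGA CpG were scored, and the strand on the longer fragment was lower by over 20 points in 19 and higher by over 20 points in 0. The median level was 75.7% on the shorter and 18.9% on the longer fragment. At the Ephb1 site, in a coding exon of an ephrin receptor, the strand with a predicted fragment of 46 bp had a mean of 98.0%. The strand with a predicted fragment of 2050 bp had a mean of 5.14%. At the Pmp22 site the means were 91.0% (72 bp) and 15.6% (4890 bp), and at the Rabgap1l site 74.8% (233 bp) and 35.3% (579 bp). The exception in sign was Hltf, with 45.7% on the 350 bp and 64.2% on the 432 bp fragment. Other pairs close in length had the shorter fragment higher, as at Alk (94.5% at 236 bp and 44.6% at 311 bp) and Rgmb (49.9% at 483 bp and 30.1% at 507 bp).

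Over all TCGA CpGs of F0 sperm with 1 strand on a fragment up to 150 bp and the other on one above 300 bp, the longer was lower by over 20 points in 582 of 2231 (26.1%) and higher in 13. Where both fragments were up to 150 bp, the counts were 35 lower and 30 higher of 3484. In F1 sperm the longer strand was lower by over 20 points in 2070 of 3223 CpGs (64.2%) and in F1 brain in 330 of 3189 (10.3%). A strand difference of this kind was therefore not particular to the variable bins. For CCGG sites 6 CpGs in 6 variable bins had both strands scored, with the longer lower by over 20 points in 1 and higher in 2, too few to set beside TCGA. Over all CCGG CpGs with 1 strand on a fragment up to 150 bp and the other above 300 bp, the longer was lower by over 20 points in 46 of 1037 in F0 sperm (4.44%) and higher in 3. In F1 brain the longer was lower in 275 of 2346 such CCGG CpGs (11.7%) and higher in 69. The median of the shorter strand was 3.51% for these CCGG CpGs in F0 sperm and 17.0% in F1 brain, against 61.85% and 67.6% for TCGA. A strand below 20% cannot be passed downward by 20 points, so these shares do not compare the 2 sites.

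**Figure D3:**
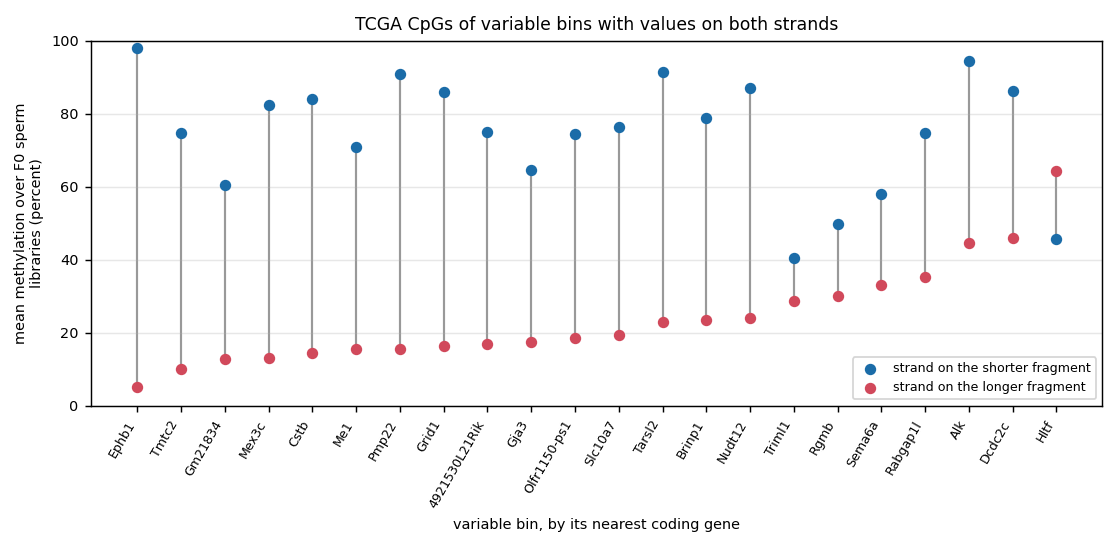
Mean methylation over F0 sperm libraries (percent) of the 22 TCGA CpGs in variable bins that were scored on both strands, with the strand read from the shorter predicted fragment and the strand read from the longer one joined by a line. In 19 of 22 the longer-fragment strand lay more than 20 points lower, and at Hltf it lay higher.

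In bins with positions on both strands, extreme values often came from libraries with missing positions. In the 58 variable bins with positions on both strands, 993 library values were at an extreme, and 412 of these (41.5%) came from a library with a value at every position, against 75.8% of the values between the extremes. A single strand was valued in 571 of the 993. Of the 421 low values, 146 rested on the lower strand alone, and of the 572 high values 324 rested on the higher strand alone. In the Ephb1 bin all 5 low libraries had only the lower strand, 3 of the 4 high libraries had only the higher strand, and 48 of 57 libraries lay between the extremes. Not all such bins had unequal strands, since the strand means were 82.5% and 82.6% at Nog and 65.7% and 66.0% at Osbpl3. A library with missing positions may also have few reads behind the others, and the parts of strand and of read number were not tested. When a library was counted only with a value at every position of the bin, 5 of these 58 bins still had 4 libraries at each extreme.

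The 74 bins with positions on a single strand did not share this feature. There 95.1% of extreme values came from libraries with every position valued, against 97.0% of the values between the extremes, and 64 of the 74 kept 4 libraries at each extreme. Positions on 1 strand can lie on the same read, so completeness does not show how many reads lay behind a value. In the Cbln4 and Tecrl bins every library value at an extreme was complete, and the means of the 3 Cbln4 positions differed little (47.9 to 50.6%). Of the 132 bins, 69 met the limits with complete libraries, among them 28 of the 44 TCGA-only and 31 of the 64 CCGG-only bins.

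The TCGA-only bins moved together across libraries. The mean over these 44 bins ranged from 17.9 to 90.3% among the 67 libraries, and Pearson's r between bins on different chromosomes had a median of 0.470 over 889 pairs. In the 34 bins on fragments above 300 bp the median pair r was 0.532, and in the 10 on shorter fragments it was 0.0800. The 64 CCGG-only bins ranged only from 36.8 to 68.6% in their library mean, with a median pair r of 0.0880 over 1904 pairs. Pairs share the libraries they are measured in, so these values describe the set and carry no p.

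The library mean of the TCGA-only variable bins followed that of other TCGA-only bins. Over the 67 libraries r was 0.868 with the mean of the 1099 other TCGA-only bins on fragments of 300 to 500 bp, and between 0.662 and 0.973 within the 7 groups. Those other bins spanned 30.9 to 55.0% (median 48.5%) between libraries, against 66.7 to 70.3% for the other bins on fragments up to 150 bp. With the 14936 bins on those short fragments r was 0.713, and with the 1358 other TCGA-only bins of intermediate level (40 to 70%) it was 0.644, so the relation was not limited to long fragments. The relation with the CCGG-only variable bins had the opposite sign (r = -0.416). The library mean of the CCGG-only variable bins had r = 0.869 with that of the 809 other CCGG-only bins of intermediate level (40 to 70%).

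Libraries with many positions valued, the count used here in place of depth, were among the lowest in the TCGA-only bins. The 10 libraries with most positions (1438541 to 1855573) had a TCGA-only mean of 17.9 to 59.3% (median 25.3%), and the 10 with fewest (800605 to 1027858) one of 39.6 to 90.3% (median 65.8%). Pearson's r with log10 of the positions was -0.600 and Spearman's rho -0.470 over 67 libraries, and r was -0.593 without the 2 libraries farthest from the median. Within groups r ran from -0.856 to 0.744, so the relation did not hold in every group. In the CCGG-only variable bins r with the positions had the opposite sign (0.423), and in the 26 TCGA-only variable bins scored in F1 sperm it was 0.593 over 13 libraries. Of the 329 low values in TCGA-only bins, 134 (40.7%) came from 5 libraries, which were columns 4 and 8 of smoked WT, column 5 of control WT, column 8 of recovery 2 and column 3 of smoked Nrf2-/-. Without these 5, 21 of the 44 bins still had 4 libraries at each extreme. Whether the number of positions valued had a part in the levels was not tested further.

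**Figure D4:**
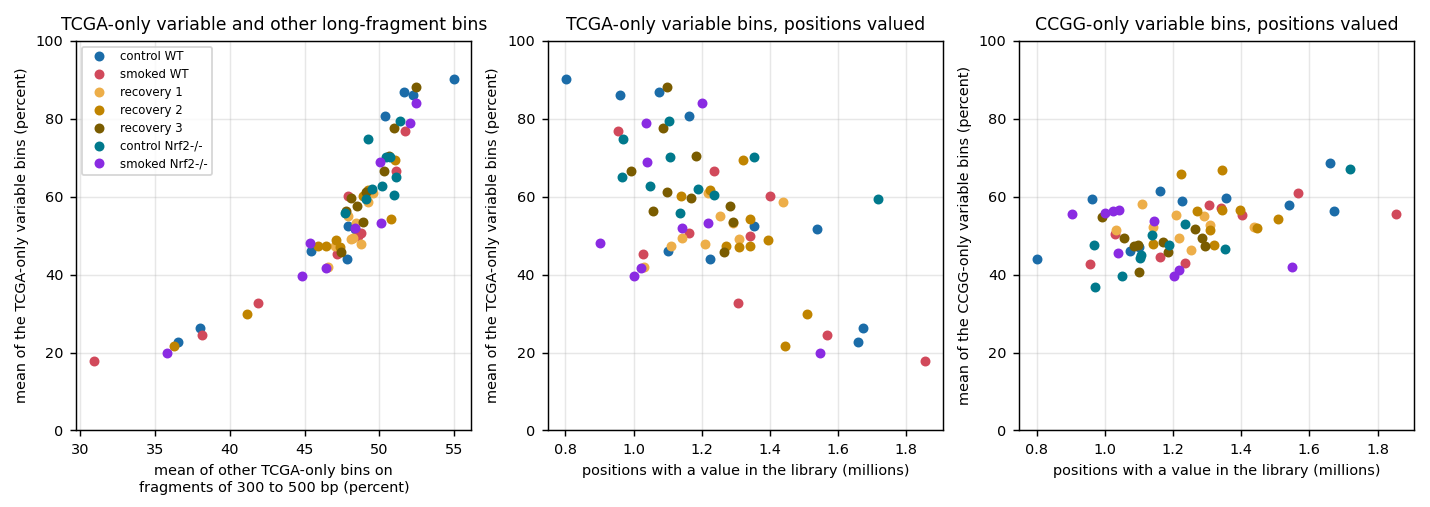
Each point is 1 of the 67 F0 sperm libraries, coloured by group. Left, library mean (percent) of the 44 TCGA-only variable bins against that of 1099 other TCGA-only bins on fragments of 300 to 500 bp (r = 0.868). Middle and right, library mean of the 44 TCGA-only and of the 64 CCGG-only variable bins against the number of positions valued, where the first falls with the number of positions (r = -0.600) and the second spans 36.8 to 68.6%.

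Group means of the TCGA-only bins overlapped widely. The mean of the library means was 58.7% ± 25.4 (SD, n = 10) for control WT and 47.1% ± 19.5 (n = 9) for smoked WT. Recovery 1 stood at 51.5% ± 5.95 (n = 9), recovery 2 at 48.8% ± 14.3 (n = 10) and recovery 3 at 63.7% ± 12.4 (n = 10). Control Nrf2-/- stood at 66.0% ± 7.43 (n = 10) and smoked Nrf2-/- at 54.0% ± 20.3 (n = 9). The control WT libraries alone spanned 22.8 to 90.3%, and of the other 57 libraries 3 lay below that range, the lowest of smoked WT (17.9%), smoked Nrf2-/- (19.8%) and recovery 2 (21.7%), and none above it. The CCGG-only means lay between 47.8% ± 8.24 in control Nrf2-/- and 55.9% ± 7.81 in control WT.

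Somatic DNA was checked at promoters that are methylated on the maternal allele of somatic cells and unmethylated in sperm. Of 9 listed genes, 5 had enough scored positions in F0 sperm, and the medians over the 67 libraries were 0.481% for Peg3, 0 for Peg10, 0.312% for Plagl1, 0 for Airn and 0.643% for Peg13. The library mean over these genes was 0 to 3.79%, and in F1 brain the medians were 29.2% for Peg3, 26.3% for Peg10, 35.1% for Airn and 37.7% for Peg13. Plagl1 stood at 2.44% in F1 brain (0.815 to 5.5%), inside its F0 sperm range of 0 to 9.2%, so it did not tell these tissues apart. The ranges in F0 sperm and F1 brain also overlapped at Peg10 (0 to 16.3% and 1.04 to 49.2%) and Airn (0 to 4.17% and 2.56 to 61.5%). They did not overlap at Peg3 (0 to 3.84% and 15.1 to 45.5%) and Peg13 (0 to 1.99% and 7.94 to 43.9%). Kcnq1ot1 and Nnat, not scored in F0 sperm, had F1 brain medians of 11.4% (0 to 38.8%) and 23.9% (0 to 66%). In F0 sperm the library means of the TCGA-only and the CCGG-only variable bins had r = 0.141 and 0.191 with the library mean over the imprinted promoters. Of the 6 Nfe2l2 positions valued in all 48 WT libraries, 4 had a value in 0 of the 19 Nrf2-/- libraries and 2 in all 19.

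F1 libraries, which the rule did not use, varied less in these bins. In F1 sperm 44 of the 132 bins were scored, and their SD between 13 libraries had a median of 8.30 points, against 25.3 points for the same bins in F0 sperm and 1.86 points over all 39086 bins scored in both. It was lower than in F0 sperm in 42 of 44. Within site classes the median SD was 7.37 points for the 26 TCGA-only variable bins and 6.02 points for all TCGA-only bins. Of these 26 bins, however, 23 lay on fragments above 300 bp. TCGA-only bins as a whole had a median SD of 4.32 points on fragments of 300 to 500 bp and 1.99 points on longer ones. For the 15 CCGG-only variable bins it was 11 points, against 1.07 points for all such bins, most of which were near 0%. Only 1 of the 44, the Ephb1 bin, had any library at each extreme, against 0.481% of all bins. Bins selected for a wide spread in 1 set of libraries tend to spread less in another.

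The site classes of variable bins had unlike levels in F1 sperm, with overlapping ranges. The 26 TCGA-only bins scored there had a median level of 11.3% (1.92 to 71.1%), with 19 at 20% or less and 0 at 80% or more. The 15 CCGG-only bins had a median of 74.1% (37.0 to 95.1%), with 7 at 80% or more and 0 at 20% or less. Over all bins the order was the opposite, with medians of 74.5% for TCGA-only and 0.704% for CCGG-only bins. Of the 26 TCGA-only variable bins, however, 23 lay on fragments above 300 bp. TCGA-only bins as a whole had F1 sperm medians of 5.70% on fragments of 300 to 500 bp and 1.98% on longer ones. The low level was therefore not particular to the variable bins. In the Cbln4 bin the 6 valued libraries from sons of control WT sires stood at 0, 2.22, 2.56, 7.69, 9.09 and 11.1%, and those from sons of smoked WT sires at 0, 2.22, 2.78, 4.44, 4.76 and 12.5%. All 12 F1 sperm libraries with a value were thus low at Cbln4, where F0 libraries ran up to 100%. The largest F1 sperm SD was that of the Ephb1 bin (24.8 points, 0 to 91.7%, n = 13), followed by Meltf (24.5 points, 22.2 to 100%, n = 9).

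In F1 brain 85 bins were scored, mostly at a high level. The median level was 83.8% (3.66 to 97%), with 51 bins at 80% or more, 29 between and 5 at 20% or less. The SD between 32 libraries had a median of 6.18 points, against 22.0 points for the same bins in F0 sperm and 1.61 points over 97102 bins, and it was lower than in F0 sperm in 85 of 85. By class it was 7.02 points for the 9 TCGA-only variable bins against 3.71 points for all such bins, and 5.73 points for the 62 CCGG-only ones against 1.10 points. At least 1 library at each extreme was found in 3 of the 85, against 0.512% of all bins. The bin in an intron of Cfap54, a cilium gene, varied most (SD 19.4 points, 12.5 to 100%, n = 31). Of the CCGG-only bins 62 of 64 were scored in brain (96.9%, against 94.8% of all such bins), and of the TCGA-only bins 9 of 44 (20.5%, against 90.4%). Most TCGA-only variable bins thus had too few values in brain to be compared.

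For comparisons between groups, limma was fitted to the bin means of all scored bins, and a bin was called at an adjusted p (Benjamini-Hochberg) below 0.05. Because the rule favours bins with wide differences, counts of called variable bins are printed beside the share of all bins and nothing is read from them. Smoked WT, recovery 1, recovery 2 and recovery 3 against control WT each called 0 of the 132 bins, where 0%, 0%, 0.000966% and 0.0106% of all bins were called. In the recovery comparisons, exposure with recovery and age cannot be told apart. At an unadjusted p below 0.05 the counts were 8, 9, 4 and 18 of 132, against 4.42, 5.68, 4.44 and 5.98% of all bins. The difference between the smoke change in Nrf2-/- and that in WT called 0 bins (0% of all bins), and 7 of 132 variable bins had an unadjusted limma p below 0.05, against 4.23% of all bins.

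The rule took low libraries from any group, and at the 4 called bins it met the low limit with Nrf2-/- libraries: 8 low Nrf2-/- and 0 low WT libraries at Nog, 10 and 0 at Efcab3, 5 and 1 at Osbpl3, and 3 and 1 at Cdh9. Their membership thus rested on the same differences that the fit tests. Their calls over all bins are not independent of the rule, and their F0 differences are given below as description without p. Control Nrf2-/- against control WT called 2 variable bins, both lower (0.204% of all bins), smoked Nrf2-/- against control WT 3, all lower (0.182%), and Nrf2-/- against WT at matched smoke status 4, all lower (0.549%). Smoked against control Nrf2-/- called 1, lower (0.00579%). The comparisons share libraries and are not independent. The table headings place all Nrf2-/- F0 libraries in a separate run of facility numbers from the WT libraries, so genotype and the handling of a run cannot be told apart.

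The Osbpl3 bin lay in a coding exon of a gene for an oxysterol-binding protein. The 10 control WT libraries were at 18.2, 70.4, 70.4, 79.0, 82.3, 86.1, 86.5, 89.3, 91.1 and 100%, and the 10 control Nrf2-/- libraries at 5, 17, 19.7, 21.7, 23.5, 30.7, 31.9, 36.5, 37.5 and 63.5%. Except for 1 control WT library the groups did not overlap. Control WT stood at 77.3% ± 22.7 and control Nrf2-/- at 28.7% ± 15.7 (SD, n = 10 each), lower by 48.6 points. Smoked Nrf2-/- stood at 34.8% ± 17.3 (n = 8), and the difference at matched smoke status was -45.5 points. These comparisons with WT were called. The bin met the low limit with 5 Nrf2-/- libraries and 1 WT library, so the values are description. The call of smoked Nrf2-/- against control WT was lost when only the compared groups were fitted. The recovery groups had means of 77.6 to 84.2%, like the other WT groups.

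The Nog bin was near full methylation in every WT group. The 43 valued WT libraries lay at 77.8% or more, with group means of 97.5 to 98.8%. The 9 control Nrf2-/- libraries were at 0, 4.37, 61.7, 93.5, 94.4, 94.4, 94.4, 100 and 100%, and the 7 smoked Nrf2-/- libraries at 0, 0, 2.08, 2.56, 3.70, 7.90 and 100%. Low libraries thus occurred in both Nrf2-/- groups and in no WT group, and each Nrf2-/- group also held a library at 100%. The bin met the low limit through these 8 Nrf2-/- libraries alone, so the differences that follow are description. Smoked Nrf2-/- was lower than control WT by 81.1 points, which was called, and control Nrf2-/- by 26.3 points, which was not. The fit shares 1 variance over all groups. The SD was 40.9 points in control and 36.9 points in smoked Nrf2-/-, against 2.28 to 7.41 points in the WT groups. The shared variance thus understates the spread of the Nrf2-/- groups. Smoked against control Nrf2-/- was called at -54.8 points, but this call was lost in 13 of 67 fits that left out 1 library, all of them Nrf2-/- libraries (6 control and 7 smoked). It was also lost in 4 of 5 other settings, which were the arcsine square root scale, libraries with a value at every position, only the compared groups, and the number of positions as a covariate. The smoke change in Nrf2-/- minus that in WT was not called at Nog (-55.9 points).

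The Efcab3 bin, in a coding exon shared with the overlapping Gm11639, had its control WT libraries at 55.2, 69.5, 70.4, 75, 76.9, 77.8 and 90.5%. The 9 control Nrf2-/- libraries were at 4.35, 5.13, 8.42, 9.80, 15.0, 18.5, 57.8, 61.5 and 76.2%, so 3 of them lay within the control WT range and 6 were low. Control Nrf2-/- was lower than control WT by 45.1 points and smoked Nrf2-/-, at 0 to 37.5% (n = 7), by 56.8 points, and both were called. The bin met the low limit through 10 Nrf2-/- libraries and 0 WT libraries, so these values are description. The call of control Nrf2-/- against control WT was lost when only the compared groups were fitted. The recovery means were 59.2 to 68.3%.

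The Cdh9 bin lay in repeat-masked intergenic sequence 1463256 bp from the start of Cdh9, a cadherin gene, at chr15:15265401-15265500. It was called only at matched smoke status (-28.2 points). The bin met the low limit with 3 Nrf2-/- libraries and 1 WT library, so this difference is description. Control WT libraries lay at 54.5 to 88.9% (median 66.8%, n = 8) and control Nrf2-/- libraries at 9.26 to 84.5% (median 29.6%, n = 8), so the groups overlapped. The recovery groups, all WT, had means of 52% ± 15.6 (n = 9), 66% ± 13 (n = 8) and 56.5% ± 19.5 (n = 8), all between those of control WT (69.3% ± 11.1, n = 8) and smoked Nrf2-/- (44.5% ± 15.9, n = 8).

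The 4 called bins were compared in F1 brain between sons of Nrf2-/- and of WT sires, which neither the rule nor these calls had used. The differences were 0.641 points for Osbpl3, -1.33 for Nog, 3.75 for Efcab3 and -4.62 for Cdh9, with permutation p adjusted over 4 tests of 0.866, 0.397, 0.595 and 0.128, so none was past the threshold. In F1 brain every valued library lay at 87.1% or more at Nog.

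**Figure D5:**
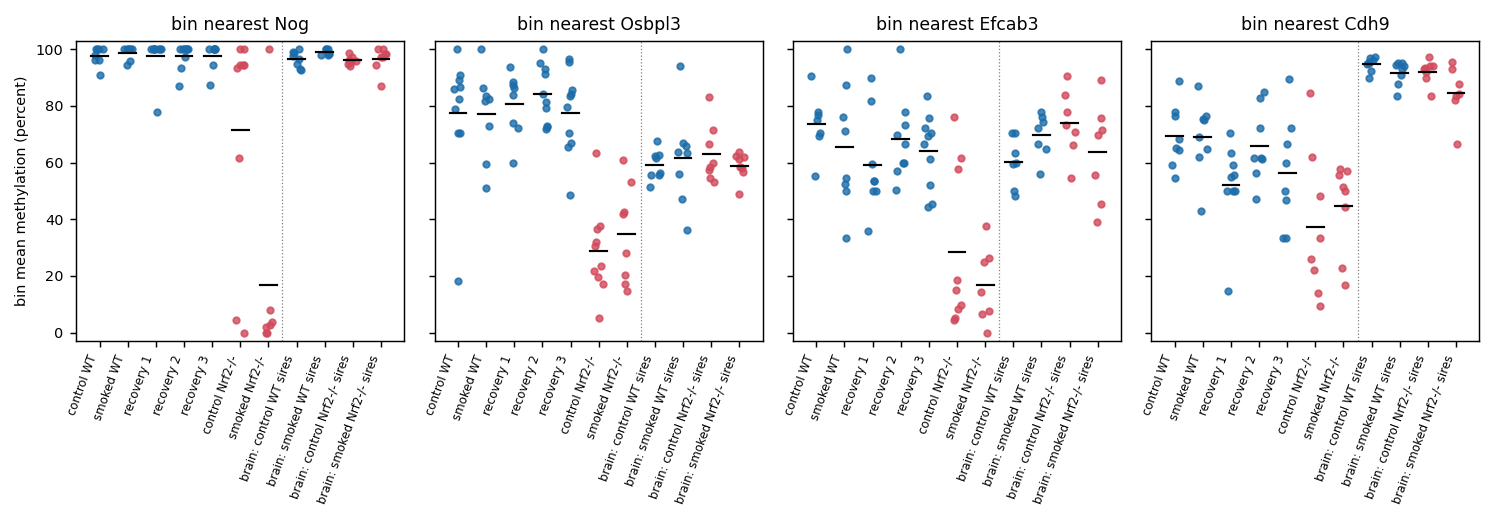
Bin level (percent) in each library (points) and the group mean (bars) for the 4 variable bins called by genotype, in the 7 F0 sperm groups and, right of the dotted line, in F1 brain by sire. Blue marks WT males or sires and red Nrf2-/- males or sires. At Nog all WT sperm libraries lie at 77.8% or more while Nrf2-/- libraries lie at both ends, and in F1 brain all lie at 87.1% or more.

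No variable bin was called among sons. In F1 sperm, sons of smoked WT against sons of control WT sires called 0 of 44 bins (0% of all bins; 2 bins at an unadjusted limma p below 0.05, against 4.77% of all bins). In F1 brain 0 of 85 were called for sons of smoked WT sires (0%), of control Nrf2-/- sires (0.00824%) and of smoked Nrf2-/- sires (0.0134%) against sons of control WT sires, and 0 for smoked against control Nrf2-/- sires (0.00206%). At an unadjusted limma p below 0.05 the F1 brain counts were 2, 5, 12 and 12 of 85, against 3.59, 9.28, 10 and 6.17% of all bins.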

How the data were processed

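The authors aligned 50-cycle single reads from pooled MspI and TaqαI digests to mm10 (GRCm38) with Bismark and deposited, per group, a methylation percent for each cytosine and library. The study's methods count a CpG as scoreable when over 8 reads cover it in 4 or more replicates. Whether that limit was applied to the deposited percents, and the version of Bismark, are not given in the sources used here. Without read counts the depth is unknown and no interval was computed, and the number of positions with a value (800605 to 1855573 in F0 sperm) stood in for it. Columns carry a facility number that matches no sample label, so they were assigned to groups only and are named by their order. A control WT F1 brain sample has a conflicting strain label and was assigned by its title. All columns were used (0 unused).

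Percents at 1001681 autosomal positions (each strand separate) were averaged in 100-bp bins. Group differences were tested with limma 3.58.1 (R 4.3.3) on bin means with group as the factor and the variance shared over all groups of a tissue, over all scored bins, with Benjamini-Hochberg adjustment, and single bins in F1 brain with two-sided permutation tests (100000 resamples). The code was checked on simulated data. Sequence was read from GRCm38 (RefSeq) and features from the GENCODE annotation. Named bins were the 8 with most libraries at the rarer extreme, up to 3 called per comparison, the 3 with the largest SD in each F1 tissue, those in coding exons or within 1000 bp of a start, and examples at the edge of the rule. The Cdh9 bin, the fourth call of its comparison, was named after its values were seen. The members, lists and tests were chosen with earlier results of these data known. Alternatives to the limits, the averaging and the libraries were recomputed. Some bins are not reported here.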

Additional observations from a re-analysis of the deposited data

Results flagged for a closer look

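In groups of 4 to 10 libraries, 72 sets of values were screened for a library standing apart by Dixon's gap test, and 12 were flagged. The test flags about 5% of sets by chance where values are normally distributed. Several sets here, such as those at Nog, pile up near 100%, so the number flagged is not read against 5%. For the mean of the CCGG-only variable bins, a control Nrf2-/- sperm library stood high at 67.1% and an F1 brain library from a son of a smoked WT sire low at 59.2%. That brain library also had a mean of 5.10% over the maternally methylated imprinted promoters, against 23 to 32.3% in the other 7 of its group. Over the 32 F1 brain libraries, this one included, r between that mean and the CCGG-only level was 0.841, and what part it had in the low value was not tested. At Osbpl3, a control WT sperm library stood low at 18.2% and an F1 brain library from a son of a smoked Nrf2-/- sire low at 48.8%. At Nog, single libraries stood low in control WT (90.9%), recovery 1 (77.8%), recovery 2 (87.1%), recovery 3 (87.5%) and F1 brain of smoked Nrf2-/- sires (87.1%), in groups otherwise close to 100%, and a smoked Nrf2-/- library stood high at 100%. At Cdh9, a recovery 1 library stood low at 14.8% and an F1 sperm library from a son of a control WT sire low at 83.3%.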

How the results depend on the processing

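The number of variable bins depended on the limits. Against 132, there were 12 with limits of 10% and 90%, 585 with 30% and 70%, 241 with 3 libraries at each extreme, 32 with 6, 20 with at least 5 positions, 69 with complete libraries only, and 404 with strands averaged first and 2 or more CpGs per bin, of which 266 lay in bins not scored otherwise. There were 44 within the 48 WT libraries and 3 within the 19 Nrf2-/- libraries, where fewer libraries make the limit harder to meet. Position-adjusted values gave 101 and bins shifted by 50 bp gave 120. Leaving out 1 library gave 121 to 132. As alternatives chosen after seeing the data, leaving out the 10 libraries with most positions gave 74 (15 of 44 TCGA-only and 50 of 64 CCGG-only bins kept), and leaving out the 10 with fewest gave 93 (37 and 39 kept).

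Called bins for control Nrf2-/- against control WT fell from 2 to 1 in the fit of only the compared groups, which has fewer libraries (2 to 3 when 1 library was left out). For smoked against control Nrf2-/- they fell from 1 to 0 on the arcsine scale, with a value at every position, in the fit of the compared groups and with positions valued as a covariate, an alternative also added after seeing the data, and the cause was not tested (0 to 1 without 1 library). Matched smoke status gave 4 to 6 without 1 library, smoked Nrf2-/- against control WT 3 to 3, the difference in smoke change 0 to 1 and F1 sperm 0 to 0. In the fit of only the compared groups, Osbpl3 in smoked and Efcab3 in control Nrf2-/- against control WT were no longer called.

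No paired analysis was possible because the columns carry facility numbers that match no sample label and no replicate number. Depth behind a percent is unknown, so how far few reads widened these bins was not tested.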
